A study of Mus musculus with 6 samples.

Results

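The Fc receptors for immunoglobulin are cell-surface proteins that bind the constant (Fc) part of antibodies. They were taken here as 6 mouse genes, matched by symbol among the 41128 genes of the expression table. The group was chosen with earlier results of these data known. *Fcgr1*, *Fcgr3* and *Fcgr4* encode the activating IgG receptors, and *Fcgr2b* encodes the inhibitory IgG receptor. *Fcer1g* encodes the shared signalling chain, and *Fcgrt* encodes the heavy chain of the neonatal Fc receptor. RNA sequencing had been performed on leukemia cells from the bone marrow (BM) of 6 mice with acute myeloid leukemia (AML), and the question was how expression changed when *IRX3*, an Iroquois homeobox gene, was expressed together with *Hoxa9*. Both cohorts were started from KIT+ BM cells of female CD45.1+ donors (B6.SJL-Ptprca Pepcb/BoyJ) of 6 to 12 weeks of age, transduced with retroviral *Hoxa9* and injected into lethally irradiated C57BL/6 (CD45.2+) recipients, and the labels give the strain of all 6 samples as C57BL/6. The *Hoxa9*/MTV cohort (mice 1.1, 1.2 and 1.4) carried the empty vector MTV as the second virus and the *Hoxa9*/*IRX3* cohort (mice 3.2, 3.3 and 3.5) carried a human *IRX3* cDNA in its place. Expression of both transgenes was driven by the viruses and not by the genes' own promoters. Recipients had also received normal CD45.2+ BM, and donor-derived KIT+Gr1+ cells were sorted from thawed BM of sick animals, 1 library per mouse.

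IgG receptors of the activating kind bind antibody with an alpha chain and signal through a dimer of the Fc receptor gamma chain, the product of *Fcer1g*. The gamma chain carries an immunoreceptor tyrosine-based activation motif (ITAM), which is phosphorylated by SRC family kinases and then recruits the kinase SYK. In mice the alpha chains of FcγRI, FcγRIII and FcγRIV all need the gamma chain for surface expression, and so does the IgE receptor of mast cells and basophils. FcγRIIB instead holds an inhibitory motif (ITIM) in its own tail and recruits the phosphatase SHIP1. The neonatal receptor pairs with β2-microglobulin, resembles an MHC class I molecule, and returns IgG and albumin from endosomes to the cell surface, in myeloid cells among others.

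The RPKM values analyzed are reads per kilobase of the whole gene span with its introns, scaled to the reads of the library. Library sizes recovered from the steps between low values ran from 7979246 to 9803621 reads. Pearson correlation of log2(RPKM + 0.5) between mice across genes, which are not independent, was 0.978 to 0.983 within *Hoxa9*/MTV and 0.917 to 0.925 within *Hoxa9*/*IRX3*, so the second cohort was the more variable one. Protein-coding genes that exceeded 0.5 RPKM in 1 mouse or more, 9522 in all, were tested with limma on log2(RPKM + 0.5), and a gene was called when its Benjamini-Hochberg adjusted p was under 0.05 and its change at least 2-fold on that scale. Fold changes on it are smaller than ratios of RPKM for low genes. By this rule 298 genes were called, 105 higher and 193 lower in *Hoxa9*/*IRX3*. The mouse *Irx3* row was listed at 0 in the *Hoxa9*/MTV mice and at 0.148 to 15.1 RPKM in the *Hoxa9*/*IRX3* mice, and *Hoxa9* at 174 to 363 and 154 to 242 RPKM. Of the genes behind the sort, *Kit* stood at 2.48 to 3.12 RPKM in *Hoxa9*/MTV and 1.63 to 2.70 in *Hoxa9*/*IRX3*, and *Ly6c2*, which encodes one of the antigens that Gr1 antibody can bind, at 413 to 479 and 414 to 844. In the list of 5 genes behind the sort 4 were tested, with log2 differences of -0.31 to 1.35. Of these 4, 1 was called, higher in *Hoxa9*/*IRX3*, where 3.13% of all tested genes were called. The cohorts thus did not match on every gene of that list.

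Of the 6 Fc receptor genes, *Fcer1g* and *Fcgrt* were lower in *Hoxa9*/*IRX3* leukemias, while *Fcgr2b*, *Fcgr3* and *Fcgr4* did not pass the test and *Fcgr1* was below the expression threshold in all mice. The 2 called genes made up 2 of the 5 that were tested, and 3.13% of all tested genes were called, 2.03% as lower. *Fcgrt* passed the threshold for testing only through the *Hoxa9*/MTV mice. The cohorts did not overlap for 3 members, *Fcer1g*, *Fcgrt* and *Fcgr3*, each lower in *Hoxa9*/*IRX3*, against 21.6% of tested genes that showed no overlap in that direction and 33.7% in either. The criterion of the study, an unadjusted p under 0.05 and a 2-fold ratio of mean RPKM, was also applied to the genes tested here. By it the same 2 genes were called, where 6.97% of tested genes were called and 4.72% as lower. In bulk RNA such as this, fewer cells of a type and less RNA per cell cannot be told apart.

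**Figure D1:**
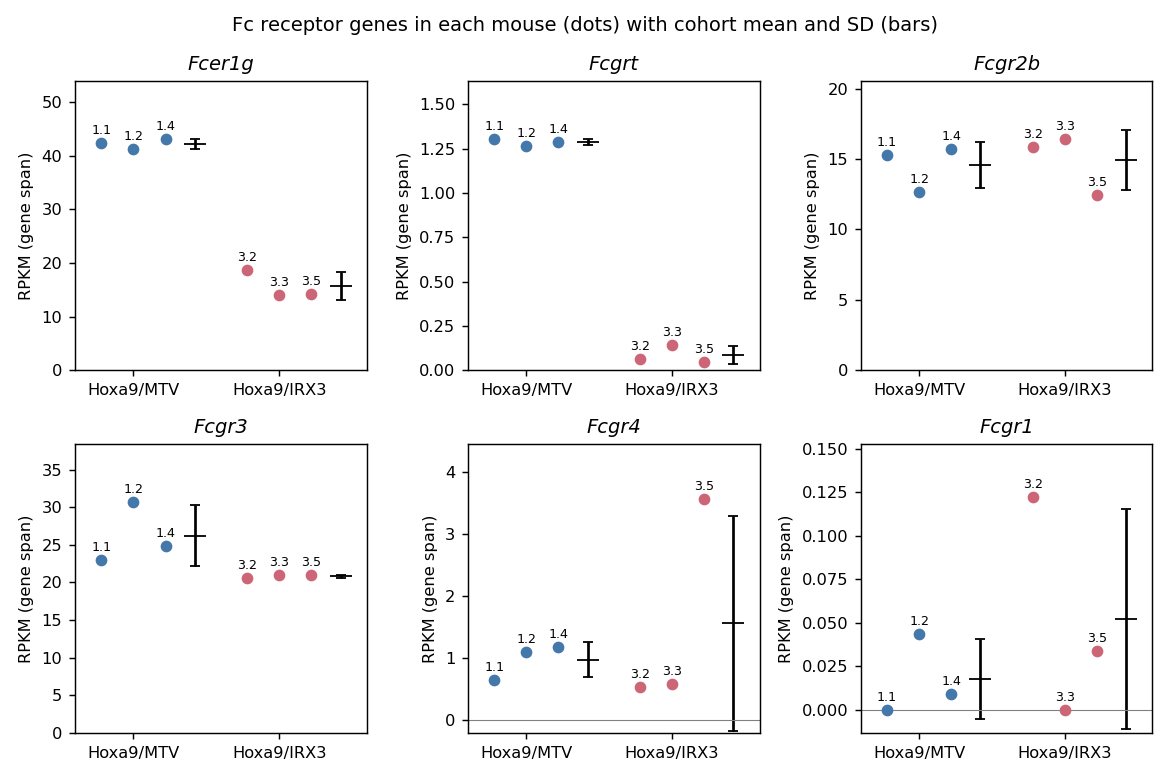
RPKM (per gene span, vertical axes) of the 6 Fc receptor genes in each mouse, with *Hoxa9*/MTV mice in blue and *Hoxa9*/*IRX3* mice in red, and the mean with its SD (n = 3) as a black bar beside each cohort. *Fcer1g* falls from 41.3 to 43.2 RPKM down to 14.1 to 18.6 RPKM and *Fcgrt* from about 1.3 RPKM to 0.141 RPKM or less, *Fcgr2b* overlaps between cohorts, and *Fcgr4* is high in mouse 3.5 alone.

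*Fcer1g*, the chain that all activating receptors share, was lower in every *Hoxa9*/*IRX3* leukemia. It lies at chr1:171229572-171234365 (GRCm38, reverse strand). The 3 *Hoxa9*/MTV mice measured 42.3, 41.3 and 43.2 RPKM (mice 1.1, 1.2 and 1.4), and the *Hoxa9*/*IRX3* mice 18.6, 14.1 and 14.2 RPKM (mice 3.2, 3.3 and 3.5). Every *Hoxa9*/*IRX3* mouse was below every *Hoxa9*/MTV mouse, and the lowest *Hoxa9*/MTV value was 2.22 times the highest *Hoxa9*/*IRX3* value. The means were 42.3 ± 0.933 RPKM and 15.7 ± 2.59 RPKM (SD, n = 3 each), a 2.70-fold difference, from 1645 to 2002 reads per mouse in the first cohort and 544 to 792 in the second. On the log2 scale *Fcer1g* fell by 1.42 (SE 0.15, 95% interval -1.79 to -1.05, limma adjusted p = 0.0084). By unadjusted p it ranked 58th among the tested genes. The size of the change held when each mouse was left out in turn, from -1.55 to -1.35, but the adjusted p was 0.053, 0.057 and 0.060 without mouse 1.1, 1.2 or 1.4, and the call was then lost.

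The ITAM that makes *Fcer1g* the signalling chain could be read from its coding sequence. A search of the principal GENCODE M21 transcript of each of the 6 genes for the ITAM letters (a tyrosine, 2 residues and a leucine or isoleucine, repeated after 6 to 12 residues) found a match only in *Fcer1g*, at residues 65 to 79 of 86. A search for the looser ITIM letters (isoleucine, valine, leucine or serine, any residue, tyrosine, 2 residues, then isoleucine, valine or leucine) found residues 317 to 322 of the 340 in *Fcgr2b*. The same 6-residue letters also occurred in *Fcgr1*, *Fcgr4*, *Fcer1g* and *Fcgrt*, where a match is of letters alone. The coding bases of the motifs that set the activating chain apart from the inhibitory receptor are shown 5′ to 3′, with the codons of their tyrosines in capitals.
Fcer1g ITAM: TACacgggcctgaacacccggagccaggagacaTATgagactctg
Fcgr2b ITIM: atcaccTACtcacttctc

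None of the activating alpha chains was called. *Fcgr3* and *Fcgr4* were tested, and *Fcgr1* was too low to be tested. *Fcgr3*, at chr1:171051174-171064935 on the reverse strand, encodes the low-affinity receptor FcγRIII. Its values were 23.0, 30.8 and 24.8 RPKM in mice 1.1, 1.2 and 1.4 and 20.6, 20.98 and 20.9 RPKM in mice 3.2, 3.3 and 3.5. The *Hoxa9*/*IRX3* mice were nearly alike (20.8 ± 0.225 RPKM, SD, n = 3) and all lay below the *Hoxa9*/MTV mice (26.2 ± 4.04 RPKM), whose lowest value was only 1.10 times the highest of the others. The log2 difference of -0.31 did not pass the test (SE 0.15, 95% interval -0.67 to 0.05, adjusted p = 0.25), and the interval excludes a 2-fold change in either direction.

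*Fcgr4*, at chr1:171018920-171029761 on the forward strand, encodes FcγRIV, a receptor for IgG2a and IgG2b. It was expressed at a low level, 0.647, 1.09 and 1.17 RPKM in mice 1.1, 1.2 and 1.4, and at 0.531, 0.583 and 3.56 RPKM in mice 3.2, 3.3 and 3.5. Mouse 3.5 stood apart with 3.04 times the next highest value, from 308 reads, and the other 2 *Hoxa9*/*IRX3* mice were below all *Hoxa9*/MTV mice. The log2 difference was 0.19 (95% interval -1.08 to 1.46, adjusted p = 0.85) and its sign rested on mouse 3.5, since it was -0.46 without that mouse (adjusted p = 0.23).

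*Fcgr1*, at chr3:96282909-96293969 on the reverse strand, encodes the high-affinity receptor FcγRI that is found on monocytes and macrophages. It was at or near 0 in both cohorts, with 0, 4 and 1 reads in mice 1.1, 1.2 and 1.4 and 12, 0 and 3 reads in mice 3.2, 3.3 and 3.5. The highest value was 0.122 RPKM, in mouse 3.2, and no mouse reached the threshold. Where genes below the threshold were let into the fit, its log2 difference was 0.09 (95% interval -0.13 to 0.31, adjusted p = 0.60). No difference was detectable at this depth, at which 3 reads amount to 0.0277 to 0.0340 RPKM for this gene.

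The inhibitory receptor gene *Fcgr2b*, at chr1:170958617-170976547 on the reverse strand, was expressed at like levels in both cohorts. Its values were 15.3, 12.7 and 15.7 RPKM in mice 1.1, 1.2 and 1.4 and 15.9, 16.4 and 12.5 RPKM in mice 3.2, 3.3 and 3.5. The cohorts overlapped throughout. The log2 difference was 0.03 (SE 0.16, 95% interval -0.36 to 0.42, adjusted p = 0.92), so that changes of 2-fold in either direction lie outside the interval, and its sign changed when mouse 1.2, 3.2 or 3.3 was left out.

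*Fcgr2b* and *Fcgr3* are close paralogs, and some reads could belong to either. Their coding sequences were identical at 86.7% of 782 aligned bases, where the other pairs of *Fcgr* genes shared 64.1% to 68.6%. Of the windows of 75 bases, the length of a read, along the principal transcripts, 7.4% in *Fcgr3* and 2.7% in *Fcgr2b* also occurred in the other gene. In all, 9.3% of *Fcgr2b* windows occurred in a transcript of another gene, 69 such genes with *Fcgr3* among them. No window of *Fcgr1*, *Fcgr4*, *Fcer1g* or *Fcgrt* occurred in another gene. Reads of low mapping quality had been removed by the authors, so the levels of *Fcgr2b* and *Fcgr3* are uncertain to that extent.

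To compare chains with each other, RPKM were rescaled from gene span to the length of each gene's exons, as given by GENCODE M21. This takes all reads as exonic, and the share of reads in introns was not measured. Exons of all transcripts were joined, 5790 bases for *Fcgr2b*, whose longest protein-coding transcript has 3544. The order of genes therefore depends on the lengths used. With longest-transcript lengths, *Fcgr3* (210 to 214 RPKM) also lay above *Fcer1g* (98.9 to 131) in *Hoxa9*/*IRX3* mice. On this exon-length scale *Fcer1g* (227 to 237 RPKM) and *Fcgr3* (183 to 244) were highest in *Hoxa9*/MTV mice and overlapped. *Fcgr2b* followed (39.3 to 48.6), then *Fcgr4* (5.58 to 10.1) and *Fcgrt* (6.55 to 6.74), which overlapped each other, and last *Fcgr1* (0 to 0.186). In *Hoxa9*/*IRX3* mice the order at the top was changed. *Fcgr3* (163 to 166) now lay above *Fcer1g* (77.3 to 102) in all mice, *Fcgr2b* (38.6 to 50.9) came next and then *Fcgr4* (4.58 to 30.7), and *Fcgrt* (0.239 to 0.730) overlapped *Fcgr1* (0 to 0.523).

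*Fcer1g* was also set against the sum of the 3 activating alpha chains, of which *Fcgr3* made up 84.3% to 97.1%. This ratio restates the fall of *Fcer1g* beside the smaller difference of *Fcgr3*, both given above. It is a description and not a separate observation. On the exon-length scale the ratio of *Fcer1g* to the alpha chains was 1.23, 0.894 and 1.14 in mice 1.1, 1.2 and 1.4, and 0.608, 0.451 and 0.396 in mice 3.2, 3.3 and 3.5. All *Hoxa9*/*IRX3* mice lay below all *Hoxa9*/MTV mice. The mean log2 ratio was 0.11 ± 0.24 in *Hoxa9*/MTV and -1.07 ± 0.32 in *Hoxa9*/*IRX3* (SD, n = 3 each), a difference of -1.18 or 2.26-fold (two-sided exact permutation test, p = 0.1, the smallest that 3 against 3 mice allow). A ratio of RNA levels does not give the number of chains on the cell surface.

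**Figure D2:**
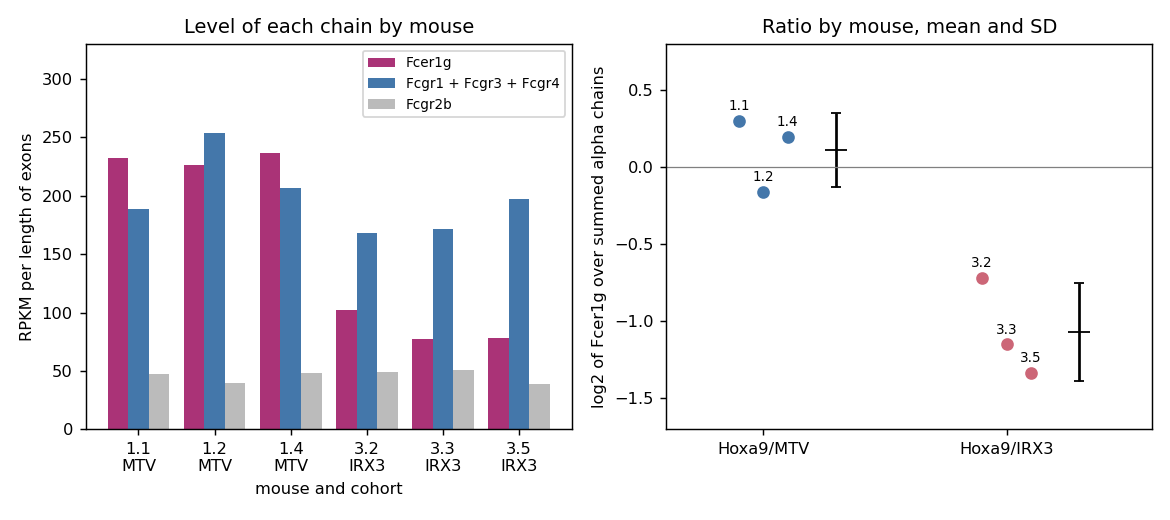
Left, RPKM per length of exons (vertical axis) of *Fcer1g*, of the summed activating alpha chains and of *Fcgr2b* as bars for each mouse. Right, log2 of the ratio of *Fcer1g* to the summed alpha chains in each mouse, with mean and SD (n = 3): *Hoxa9*/MTV mice lie at -0.16 to 0.30 and *Hoxa9*/*IRX3* mice at -1.34 to -0.72.

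The balance of activating to inhibitory receptors did not separate the cohorts. The ratio of summed activating alpha chains to *Fcgr2b*, on the exon-length scale, was 3.98, 6.45 and 4.25 in mice 1.1, 1.2 and 1.4 and 3.42, 3.37 and 5.10 in mice 3.2, 3.3 and 3.5. These ranges overlapped, with mouse 1.2 the highest and mouse 3.5 next. The mean log2 ratios were 2.26 ± 0.38 and 1.96 ± 0.34 (SD, n = 3 each) and differed by -0.30 (two-sided exact permutation test, p = 0.5).

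*Fcgrt*, at chr7:45092990-45103851 on the reverse strand, showed the largest relative fall of the group. It measured 1.31, 1.27 and 1.29 RPKM in mice 1.1, 1.2 and 1.4 and 0.0625, 0.141 and 0.0463 RPKM in mice 3.2, 3.3 and 3.5. The reads behind these values were 125, 114 and 135 in the first cohort and 6, 15 and 4 in the second. All *Hoxa9*/MTV mice were nearly alike, and the lowest of them had 8.97 times the value of the highest *Hoxa9*/*IRX3* mouse. The ratio of the means (1.29 ± 0.0190 and 0.0834 ± 0.0508 RPKM, SD, n = 3 each) was 15.4. On the log2(RPKM + 0.5) scale *Fcgrt* fell by 1.62 (SE 0.12, 95% interval -1.92 to -1.32, limma adjusted p = 0.0030), and it ranked 15th by unadjusted p. *Fcgrt* exceeded the expression threshold in the *Hoxa9*/MTV mice alone. Its p and rank thus follow a filter that it passed only through the cohort in which it was high. The size depended on how low values were treated: the log2 difference was -2.95 with 0.1 added in place of 0.5, -1.08 with 1 added, -2.98 on the exon-length scale and -3.98 by voom on the recovered reads, and the gene was called in all of these and without any 1 mouse. An antisense gene is annotated across *Fcgrt*, and one across *Fcgr2b*, and whether reads were assigned by strand is not given in the sources used here.

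*B2m*, which encodes the β2-microglobulin that the neonatal receptor needs, was among the highly expressed genes at 259, 252 and 224 RPKM in mice 1.1, 1.2 and 1.4 and 264, 207 and 197 RPKM in mice 3.2, 3.3 and 3.5. The cohorts overlapped, and the log2 difference was -0.15 (95% interval -0.54 to 0.25, adjusted p = 0.61).

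**Figure D3:**
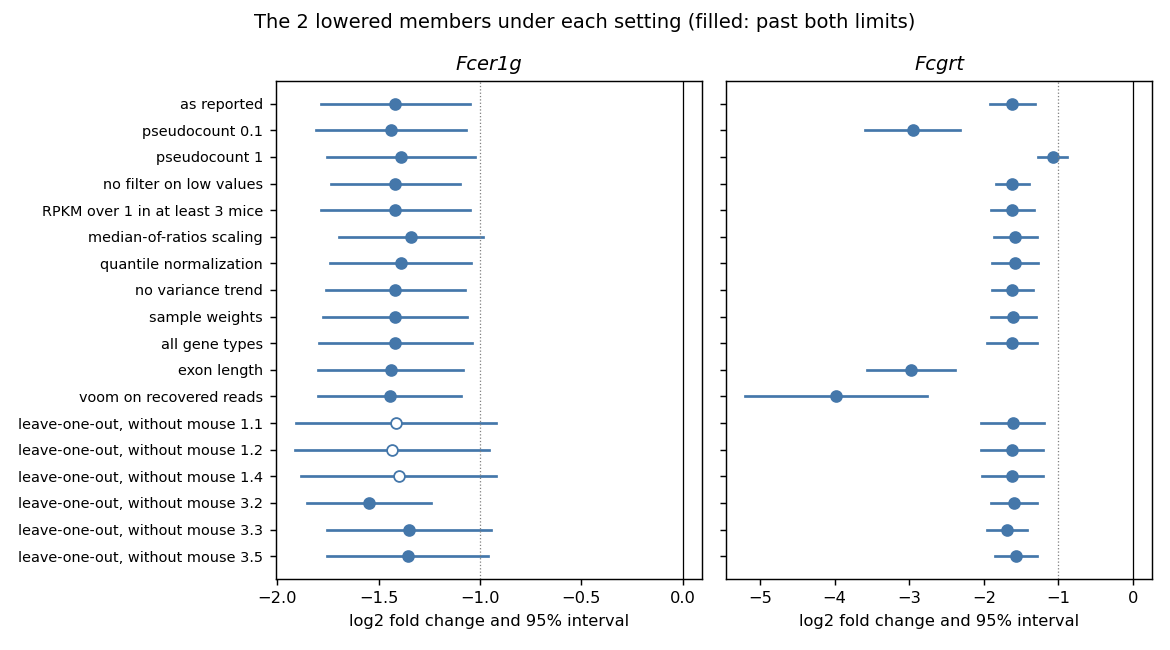
Log2 fold change of *Fcer1g* and *Fcgrt* (horizontal axes, *Hoxa9*/*IRX3* minus *Hoxa9*/MTV) with 95% intervals under each setting of the fit, filled where the gene passed both limits. *Fcer1g* stays between -1.55 and -1.34 and loses its call without mouse 1.1, 1.2 or 1.4, while *Fcgrt* ranges from -3.98 to -1.08 and keeps it throughout.

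Receptors for other antibody classes, and Fc-like receptors, were mostly silent. Of 13 such genes 2 were tested and 0 were called by limma or by voom on the recovered reads. Of the 2, 1 had an unadjusted p under 0.05, beside 24.3% of all tested genes. *Fcer1a*, *Fcer2a*, *Fcrl6*, *Fcamr*, *Pigr* and *Faim3* were listed at 0 in all mice, so that the alpha chain of the IgE receptor, another partner of *Fcer1g*, was not seen. *Ms4a2*, which encodes the beta chain of that receptor, measured 0.290, 0.279 and 0.542 RPKM in mice 1.1, 1.2 and 1.4 and 1.09, 0.610 and 0.933 RPKM in mice 3.2, 3.3 and 3.5. The cohorts did not overlap, but the log2 difference of 0.66 (95% interval 0.20 to 1.12) had an adjusted p of 0.10. *Trim21*, which encodes the cytosolic antibody receptor, stood at 5.12 ± 0.340 and 4.00 ± 1.47 RPKM (SD, n = 3 each; log2 difference -0.38, adjusted p = 0.40).

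Signalling genes that act below the activating receptors were described by a list of 24, of which 21 were tested, and those below the inhibitory receptor by a list of 6, all tested. Of these 27 genes 1 was called, *Lat2*, a share near the 3.13% called among all tested genes. The median log2 difference was -0.17, beside -0.06 over all tested genes. In the activating list 17 of 21 genes had a difference below 0, 7 of them with no overlap between cohorts, where 57.5% of all tested genes had a difference below 0 and 21.6% were lower with no overlap. An unadjusted limma p under 0.05 was found for 5 of the 21, a share near the 24.3% of all tested genes. In the inhibitory list 0 of 6 genes were called by limma or by voom, 0 had an unadjusted p under 0.05, and the median was -0.13.

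*Lat2* encodes a membrane adaptor (NTAL) that is phosphorylated downstream of Fc receptors in myeloid cells and mast cells. It measured 9.50, 10.003 and 9.48 RPKM in mice 1.1, 1.2 and 1.4 and 0.566, 2.02 and 3.06 RPKM in mice 3.2, 3.3 and 3.5. The cohorts were far apart, and mouse 3.2 was lowest. *Lat2* fell by 2.26 on the log2 scale (SE 0.41, 95% interval -3.25 to -1.27, limma adjusted p = 0.034). Its call was lost under 6 of 17 other settings, with an adjusted p of 0.12 to 0.14 without mouse 1.1, 1.2 or 1.4 and 0.053 without mouse 3.3. *Prkcd*, a protein kinase C, stood at 8.52 ± 0.345 and 4.74 ± 0.551 RPKM (SD, n = 3 each) with a log2 difference of -0.79 (adjusted p = 0.024), short of 2-fold. *Vav2*, a guanine nucleotide exchange factor, was below the threshold and was called lower, at -2.21, only on the exon-length scale (adjusted p = 0.0082).

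The kinase and phosphatases at the head of the 2 pathways did not pass the test. *Syk* stood at 5.46 ± 0.105 and 4.82 ± 0.800 RPKM (SD, n = 3 each), with a log2 difference of -0.17 (95% interval -0.50 to 0.16, adjusted p = 0.48). *Inpp5d*, which encodes SHIP1, differed by -0.16 (95% interval -0.43 to 0.11, adjusted p = 0.41). *Ptpn6*, which encodes the phosphatase SHP-1, differed by -0.10 with a wide interval, -0.88 to 0.69 (adjusted p = 0.88).

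The gamma chain also serves other receptors of myeloid cells, and *Tyrobp* encodes DAP12, an ITAM adaptor of the same kind. A list of 15 genes held *Tyrobp* and the partners of either adaptor, 1 of them without a matching row. Of these 7 were tested and 0 were called by limma or by voom. An unadjusted p under 0.05 was found for 3 of them, not all in the same direction, beside 24.3% of all tested genes. *Tyrobp* measured 18.1, 21.3 and 18.8 RPKM in mice 1.1, 1.2 and 1.4 and 13.8, 5.25 and 10.1 RPKM in mice 3.2, 3.3 and 3.5. All *Hoxa9*/*IRX3* mice were lower, but their spread was wide, and the log2 difference of -1.06 (95% interval -1.84 to -0.28) had an adjusted p of 0.11. *Clec5a*, a lectin receptor that pairs with DAP12, went the other way, at 5.28, 2.75 and 4.77 RPKM in mice 1.1, 1.2 and 1.4 and 7.39, 25.8 and 11.7 RPKM in mice 3.2, 3.3 and 3.5 (log2 difference 1.56, 95% interval 0.47 to 2.65, adjusted p = 0.10). Both were called when mouse 3.2 was left out, with adjusted p of 0.046 and 0.048. *Clec4e*, which encodes the gamma chain partner Mincle, varied too much between mice to be placed (log2 difference -0.62, 95% interval -2.31 to 1.08). Whether the fall of *Fcer1g* and the difference of *Tyrobp* were unlike was not tested.

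**Figure D4:**
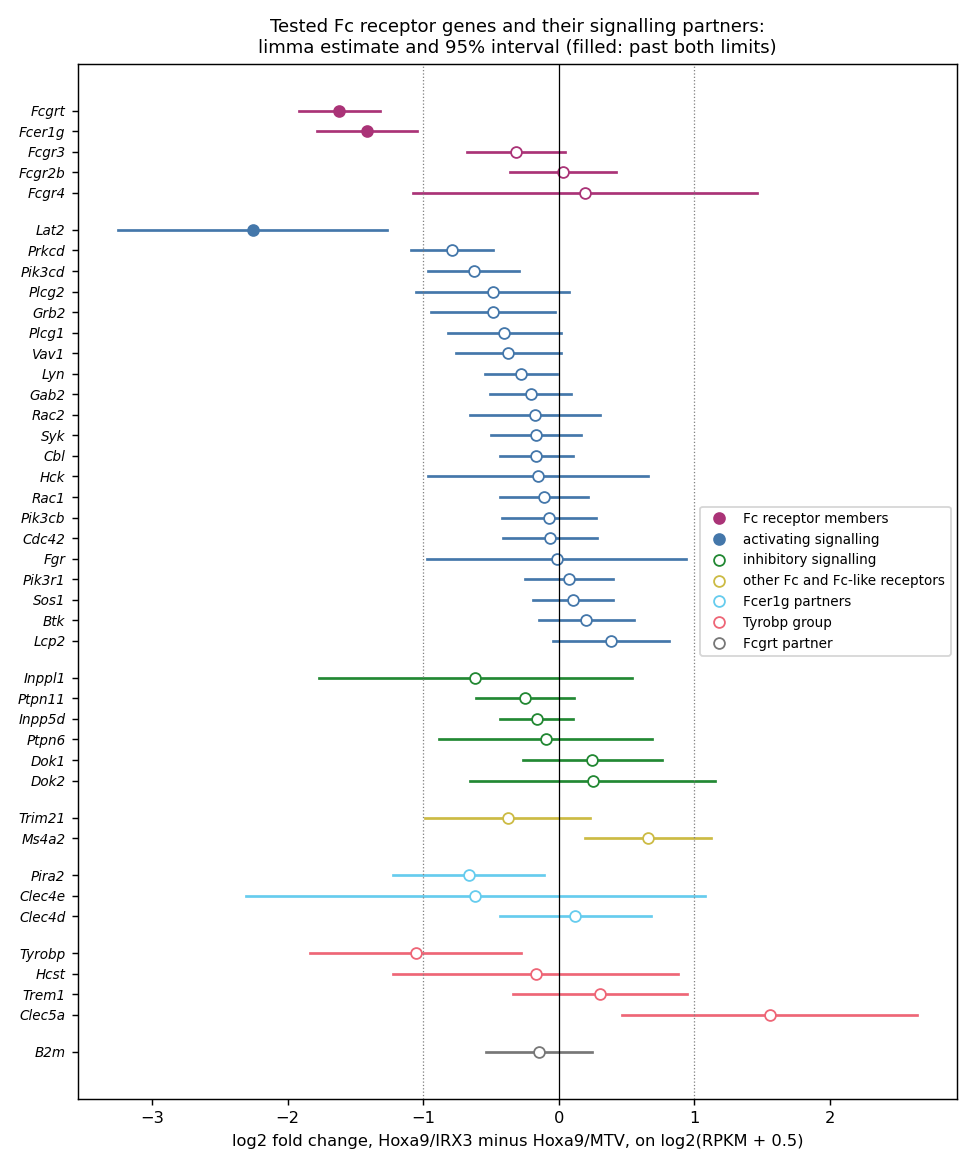
Log2 fold change (horizontal axis, *Hoxa9*/*IRX3* minus *Hoxa9*/MTV) with 95% interval of the tested Fc receptor genes, of signalling genes and of adaptor partners, grouped by list and ordered within it, with filled points past both limits and dotted lines at 2-fold. *Fcgrt*, *Fcer1g* and *Lat2* are the filled points, at -1.62, -1.42 and -2.26, and no gene is filled on the higher side.

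Transcription factors known to act on Fc receptor promoters in myeloid cells were examined next. Of the 5 reported here, 0 were called by limma or by voom, 0 had an unadjusted p under 0.05, and the cohorts overlapped for each. *Spi1*, which encodes PU.1, stood at 7.81 ± 0.677 and 5.50 ± 2.63 RPKM (SD, n = 3 each; log2 difference -0.57, 95% interval -1.39 to 0.24, adjusted p = 0.34). The differences of *Irf1*, *Irf8*, *Cebpa* and *Cebpb* ran from -1.79 to 0.21, with adjusted p of 0.37 to 0.82. The lowest of these was past 2-fold in size without being called, so a change of that factor is not excluded.

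Promoter windows of the 6 genes, 250 bases before to 50 after each start, were read from RefSeq (GRCm38.p6) and searched on both strands for letters of 4 motifs. The PU.1 core GAGGAA was in 28.3% of 32851 windows of all genes, and in those of *Fcgr1*, *Fcgr3* and *Fcgr4*, at 55, 6 and 22 bases before the start. The STAT letters TTCNNNGAA, in 8.3% of all windows, were found in *Fcgr1*, 109 bases before the start. Letters of the interferon regulatory factor (IRF) element, in 3.4%, were found in *Fcgr4*, 73 bases before it. The C/EBP letters TTGCNNAA, in 10.8%, were found in *Fcgr3* and *Fcgrt*, 28 and 239 bases before it. No matched letters of different motifs overlapped. The windows of *Fcer1g* and *Fcgr2b* held none of these letters, which says nothing of the factors themselves. The stretches outside annotated exons are shown for *Fcer1g* (chr1:171234366-171234599) and *Fcgrt* (chr7:45103852-45104072), the called genes, and for *Fcgr4* (chr1:171018676-171018919), which was high in 1 mouse, each on the strand of its gene, 5′ to 3′, with matched letters in capitals.
Fcer1g: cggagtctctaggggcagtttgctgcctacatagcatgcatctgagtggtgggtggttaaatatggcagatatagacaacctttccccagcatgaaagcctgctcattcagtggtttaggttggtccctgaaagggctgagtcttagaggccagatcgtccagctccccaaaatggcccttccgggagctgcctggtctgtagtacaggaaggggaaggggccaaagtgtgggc
Fcgrt: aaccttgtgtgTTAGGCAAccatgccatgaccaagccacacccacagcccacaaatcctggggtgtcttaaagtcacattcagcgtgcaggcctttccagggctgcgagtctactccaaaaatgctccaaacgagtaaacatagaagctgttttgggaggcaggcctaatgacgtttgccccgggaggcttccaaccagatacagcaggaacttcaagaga
Fcgr4: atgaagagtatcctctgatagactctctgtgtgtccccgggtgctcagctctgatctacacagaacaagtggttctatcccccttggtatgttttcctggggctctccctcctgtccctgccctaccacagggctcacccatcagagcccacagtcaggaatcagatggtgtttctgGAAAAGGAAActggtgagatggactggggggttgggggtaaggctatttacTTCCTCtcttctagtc

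The genes for *Fcgr2b*, *Fcgr4*, *Fcgr3* and *Fcer1g* lie in this order within 276 kb of chromosome 1, so it was asked whether genes around *Fcer1g* were lower as well. Of the 16 other tested genes within 200 kb of it, 12 had a log2 difference below 0 and 6 an unadjusted p under 0.05, beside 57.5% and 24.3% of all tested genes. Of the 16, 1 was called by limma, where 3.13% of all tested genes were called, and 1 by voom. The gene called by limma was *Ppox*, which encodes an enzyme of heme synthesis and starts 46.8 kb away, at 8.27 ± 0.337 and 3.67 ± 1.10 RPKM (SD, n = 3 each; log2 difference -1.11, limma adjusted p = 0.038), and its call was lost under 6 of 17 other settings. *Arhgap30*, which encodes a GTPase-activating protein, differed by -0.80 (adjusted p = 0.030), short of 2-fold. The highest difference was 0.44, of *Apoa2*, 3.19 kb from *Fcer1g* and nearly silent. Around *Fcgr2b*, *Fcgr3* and *Fcgr4*, where the neighbours in part are shared, 0 other genes were called by limma or by voom, 1 around each having an unadjusted p under 0.05.

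**Figure D5:**
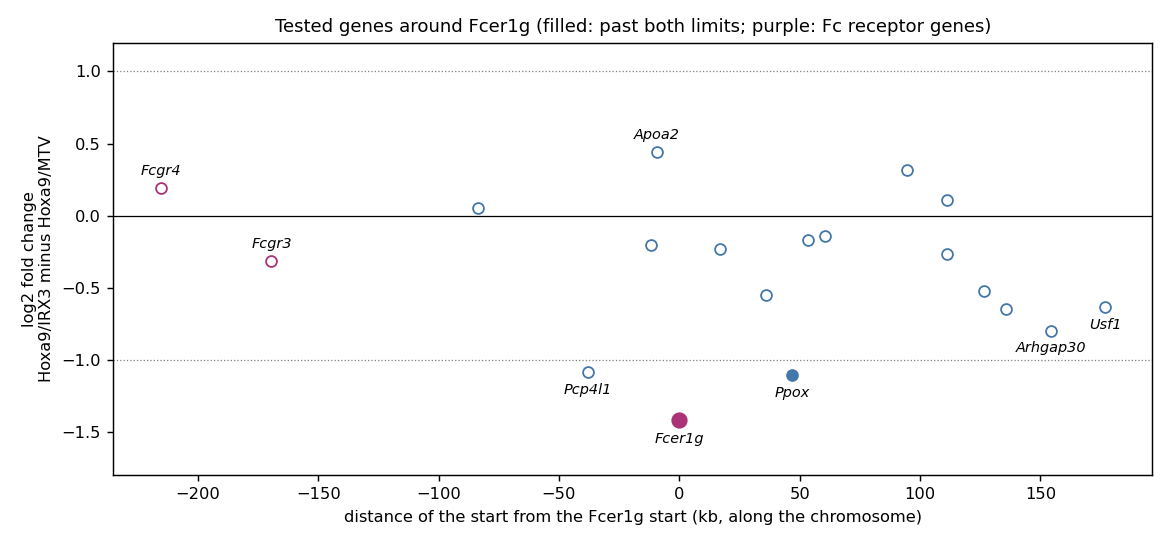
Log2 fold change (vertical axis, *Hoxa9*/*IRX3* minus *Hoxa9*/MTV) of the tested genes within 200 kb of *Fcer1g* against the distance of their start from its start in kb, with Fc receptor genes in purple and genes past both limits filled. *Fcer1g* at -1.42 and *Ppox* at -1.11 are the filled points, and 4 of the 16 other genes lie above 0.

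*Fcgrt* had 16 tested neighbours within 200 kb on chromosome 7, 12 of them below 0, and 0 were called by limma, 4 having an unadjusted p under 0.05 and 1 being called by voom. Of all tested genes 57.5% were below 0 and 24.3% had an unadjusted p under 0.05. The lowest was *Aldh16a1* at -0.89 (adjusted p = 0.013, under 2-fold) and the highest *Rpl13a* at 0.59 (adjusted p = 0.036). *Rcn3*, 0.769 kb away, differed by -0.43 (adjusted p = 0.28). Around *Fcgr1* 0 of 8 genes were called by limma, 3 having an unadjusted p under 0.05 and 1 being called by voom, with differences of -0.95 to 0.91.

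Genes of like pattern over the 6 mice were sought by the root mean square distance between centred log2(RPKM + 0.5) values, among the 2538 tested genes whose mean was 5 RPKM or more. These are descriptions with no test. *Dtx3*, which encodes a RING-type E3 ligase, was the nearest to *Fcer1g* (distance 0.15) and the second nearest to *Fcgrt* (0.096), with 9.66 ± 0.817 and 3.09 ± 0.145 RPKM (SD, n = 3 each). The gene nearest to *Fcgrt* was *BC035044* (0.062), at 8.44 ± 0.562 and 2.58 ± 0.278 RPKM, and the second to *Fcer1g* was *Znf512b* (0.15). *Cdk16* and *Slc25a44* were nearest to *Fcgr2b*, and *Sdhd* and *Rbbp4* to *Fcgr3*, all at distances of 0.052 to 0.066. The pattern of *Fcgr4* had no close match, its nearest genes *Marcksl1* and *Ltb4r1* being at 0.32 and 0.33.

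Markers of cells that express Fc receptors differed between the cohorts. In a list of 8 monocyte and macrophage genes, the summed level was 108 to 137 RPKM in *Hoxa9*/MTV and 25.1 to 70.9 RPKM in *Hoxa9*/*IRX3* mice. Of its 5 tested genes 2 were called, *Cd68* (-2.68) and *Ccr2* (-2.06), both lower, where 3.13% of all tested genes were called and 2.03% as lower. In a list of 8 mast cell and basophil genes the sums were 14.5 to 20.3 and 4.51 to 7.31 RPKM, and 2 of 4 tested genes, *Gata2* (-2.62) and *Cpa3* (-1.40), were called lower by limma and neither by voom, while the defining genes *Fcer1a*, *Tpsb2* and *Cma1* were at 0 throughout. The other tested genes of that list were *Mcpt8* (-1.21, adjusted p = 0.062), which was lower with no overlap, and *Ms4a2* (0.66, adjusted p = 0.10), which was higher with no overlap. The summed levels of both lists were lower in the cohort in which *Fcer1g* and *Fcgrt* were lower, and their part in these falls was not tested.

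In 8 neutrophil genes the sums were 2587 to 3978 and 5227 to 6621 RPKM, and *Elane* alone of the 8 tested was called, higher by 1.91. The members did not all rise: the median log2 difference was 0.23, and 2 of the 8 were below 0, the lowest at -0.99. The counts of called markers stand beside 3.13% of all tested genes. Tissue macrophages were hardly seen, with *C1qc* at 0 in all mice and *C1qa* and *C1qb* below the threshold, although *Vcam1* was called higher (3.20). For B cells, *Ms4a1* and *Pax5* were at 0, and the 2 tested genes went opposite ways, each with no overlap between cohorts. *Cd79b* was called lower (-2.65), and the other was higher and not called. For T and NK cells, *Cd3d* and *Ncr1* were at 0, and *Nkg7*, the 1 tested gene, was not called (1.62, adjusted p = 0.41). The 7 genes of that list, 6 of them under 0.5 RPKM in all mice, summed to 22.7 to 33.1 RPKM in *Hoxa9*/MTV. In *Hoxa9*/*IRX3* mice the sums spread widely, from 14.9 to 482 RPKM. For dendritic cells 1 of 3 tested genes was called, *Flt3*, lower (-1.35), and of 6 erythroid genes none reached the threshold.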

How the data were processed

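The authors prepared strand-specific polyA libraries, sequenced paired ends of 75 bases, aligned them to GRCm38 with Bowtie2 2.2.1, used SAMtools 0.1.19 to drop reads that were unaligned, not primary or under a Phred quality of 20, and assigned reads to Ensembl v76 genes. The deposited values are RPKM, which are not counts, with 1 column per mouse. Lengths, types and coordinates came from GENCODE M21 (40254 of 41128 genes matched). Library sizes were recovered from the value of 1 read, and reads so computed were whole, within 0.01, in all libraries for 65.0% of tested genes. limma 3.58.1 (R 4.3.3, eBayes with trend) was used on log2(RPKM + 0.5) and checked on simulated data, and ratios were tested by exact permutation (scipy 1.17.1). The simulated reads had the same dispersion in both cohorts, so the check does not cover the unequal spread of these cohorts. No mouse number occurs in both cohorts, so nothing was paired. All 6 members were named, with list members past both limits, fixed partners, neighbours within 200 kb and the 2 nearest patterns. The members and lists were chosen with earlier results of these data known. The transcript-length alternative was chosen after seeing the data. Values of a few fixed genes are not reported here.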

Additional observations from a re-analysis of the deposited data

How the results depend on the processing

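Alternatives were pseudocounts of 0.1 and 1, other filters, median-of-ratios and quantile scaling, no variance trend, sample weights, all gene types, exon length, voom on recovered reads, the study's own criterion (unadjusted p under 0.05 and a 2-fold ratio of mean RPKM), and leaving out each mouse. Against 298 called genes, 175 were called with no filter, 552 with exon length and 664 by the study's criterion, and 61 to 409 when 1 mouse was left out. The count of 664 comes from that criterion as applied here to the genes tested here, and differs from the study's own count. The count of called Fc receptor genes was 2 under all 12 other settings and 1 to 2 when a mouse was left out, with *Fcgrt* alone called without mouse 1.1, 1.2 or 1.4. The log2 fold change of *Fcer1g* was then -1.55 to -1.35. The sign reversed for *Fcgr2b* without mouse 1.2, 3.2 or 3.3 (-0.060, -0.02 and -0.04, range -0.060 to 0.15) and for *Fcgr4* without mouse 3.5 (range -0.46 to 0.53), and was kept elsewhere for these and for *Fcgr3* and *Fcgrt*. Called signalling genes numbered 0 with no filter, 0 with all gene types, 2 with exon length (*Vav2* and *Lat2*), and 0 to 1 when a mouse was left out. Other Fc receptors numbered 1 by the study's criterion (*Ms4a2*), and adaptor partners 0 to 2 when a mouse was left out, *Clec5a* and *Tyrobp* being called without mouse 3.2. The difference in *Fcer1g* to alpha chain ratio was -1.35 to -1.05 when a mouse was left out and -1.18 to -1.17 under the other scalings, and that of activating to inhibitory ratio -0.50 to -0.08 and -0.31 to -0.30. The cause of each change was not tested, except that leaving out a mouse leaves fewer samples. The mouse numbers are not shared between cohorts, so that no fit by pairs was made. With 3 mice in a cohort, exact tests cannot go below p = 0.1, and *Fcgr1* and, in *Hoxa9*/*IRX3* mice, *Fcgrt* rest on 15 reads or fewer per mouse.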
